A study of Mus musculus with 8 samples.

Results

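The 289 H3K9me3 peaks described here are those whose closest gene within 5 kb, as the authors annotated it, is an olfactory receptor gene, named Olfr followed by a number. They belong to 201 genes and come from 53761 peaks in all, of which 15680 were annotated to a gene. H3K9me3 was measured by ChIP-seq in whole crypt isolates from the colon of C57BL/6 mice. The KO mice had lost Smarcad1 through a Vil-Cre transgene, in which the villin promoter drives Cre in the intestinal epithelium and deletes floxed exons of the gene, and the WT mice were labelled as wildtype. Each genotype had 3 ChIP libraries and 1 input library, made from the chromatin without immunoprecipitation. The sources give no age for these animals and do not say whether a library came from 1 mouse. Smarcad1 is a chromatin remodeller, and the comparison asks whether its loss alters this repressive mark at individual sites.

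Olfactory receptors are G protein-coupled receptors that detect odorants in sensory neurons of the nose. Their genes form one of the largest families in the mouse genome and lie in long tandem clusters on many chromosomes. Most encode the receptor in a single coding exon, behind short non-coding exons. In olfactory neurons each cell transcribes a single receptor allele, while the other receptor genes are packed into heterochromatin that carries H3K9me3. Outside the nose most of the family is little transcribed. The files used here hold no RNA.

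Every library had a value at every peak, since the authors called peaks once on all ChIP libraries. Each value is the log2 of a peak's reads after all ChIP libraries were given a common distribution by the submitters. Reads recovered from the steps of those values were few at Olfr peaks. Their median was 14 in WT replicate 1, 17 in WT replicate 2 and 18 in WT replicate 3, and the KO medians were 13, 15 and 17 in the same order. The range over all Olfr peaks and libraries began at 2 reads and passed 100, above which the steps give no sure count. In the inputs the median Olfr peak held 9 (WT) and 8 (KO) reads. Replicates of an Olfr peak had a median SD of 0.32 (WT) and 0.31 (KO) in log2 units, beside 0.28 and 0.31 over all peaks. A value is an average over all cells of the isolate, so fewer marked cells and less mark per cell cannot be told apart. Smarcad1 itself held no peak, so the table gives no check of its deletion. The peak at Vil1, whose promoter drives the transgene, stood at 5.82, 4.92 and 5.04 in the WT libraries and at 11.2, 10.8 and 10.8 in the KO libraries on the log2 scale, and the inputs held 133 and 1111 reads there. Of 12 colon epithelium marker genes, 2 held a peak (Lgr5 and Vil1), and of 4 markers of immune, endothelial and stromal cells 1 did (Pecam1), from which no cell type can be read.

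The peaks furthest apart between KO and WT are shown by sequence, so that the kind of DNA under them can be seen. They are the 5 largest increases and the 5 largest decreases among Olfr peaks whose 3 KO values and 3 WT values did not overlap, and 1 of the 10 (Olfr338) passed the test of KO against WT. Each line gives the central 300 bases of the peak on the plus strand of GRCm38.p6, from RefSeq. Capitals mark bases outside the repeats that RefSeq soft-masks, and lower case marks repeat bases.
Olfr1128, chr2:87544876-87545175, higher in KO: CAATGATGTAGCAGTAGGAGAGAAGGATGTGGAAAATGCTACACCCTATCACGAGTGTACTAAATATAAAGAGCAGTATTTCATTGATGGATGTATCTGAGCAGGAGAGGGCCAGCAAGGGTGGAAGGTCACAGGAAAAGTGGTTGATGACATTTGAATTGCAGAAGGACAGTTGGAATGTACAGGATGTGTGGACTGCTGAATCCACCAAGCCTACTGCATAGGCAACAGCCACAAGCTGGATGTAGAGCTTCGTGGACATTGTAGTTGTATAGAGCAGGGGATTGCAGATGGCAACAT
Olfr765, chr10:129042376-129042675, higher in KO: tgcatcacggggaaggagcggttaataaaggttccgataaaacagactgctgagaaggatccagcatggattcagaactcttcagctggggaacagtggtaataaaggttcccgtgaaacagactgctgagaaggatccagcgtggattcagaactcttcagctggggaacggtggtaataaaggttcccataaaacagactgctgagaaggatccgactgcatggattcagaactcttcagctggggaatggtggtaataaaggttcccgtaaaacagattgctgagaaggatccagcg
Olfr478, chr7:108028876-108029175, higher in KO: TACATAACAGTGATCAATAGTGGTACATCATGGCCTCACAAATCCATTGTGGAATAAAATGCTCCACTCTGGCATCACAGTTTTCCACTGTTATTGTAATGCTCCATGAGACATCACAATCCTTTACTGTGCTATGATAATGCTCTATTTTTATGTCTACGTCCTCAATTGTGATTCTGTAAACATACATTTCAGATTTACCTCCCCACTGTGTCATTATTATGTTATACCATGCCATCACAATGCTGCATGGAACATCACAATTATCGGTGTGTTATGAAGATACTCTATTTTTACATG
Olfr1132, chr2:87639226-87639525, higher in KO: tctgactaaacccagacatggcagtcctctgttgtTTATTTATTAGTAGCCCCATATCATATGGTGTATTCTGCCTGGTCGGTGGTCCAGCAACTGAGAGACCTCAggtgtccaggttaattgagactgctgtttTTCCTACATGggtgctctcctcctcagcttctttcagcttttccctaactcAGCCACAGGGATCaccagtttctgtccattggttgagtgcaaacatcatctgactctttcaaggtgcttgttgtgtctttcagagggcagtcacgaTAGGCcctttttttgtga
Olfr1100, chr2:86982001-86982300, higher in KO: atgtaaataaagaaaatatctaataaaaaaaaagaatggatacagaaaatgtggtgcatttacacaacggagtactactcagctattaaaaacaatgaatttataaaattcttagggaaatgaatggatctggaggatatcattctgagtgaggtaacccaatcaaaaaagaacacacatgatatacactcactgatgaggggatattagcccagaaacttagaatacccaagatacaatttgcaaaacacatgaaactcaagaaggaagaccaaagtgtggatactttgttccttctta
Olfr1447, chr19:12899101-12899400, lower in KO: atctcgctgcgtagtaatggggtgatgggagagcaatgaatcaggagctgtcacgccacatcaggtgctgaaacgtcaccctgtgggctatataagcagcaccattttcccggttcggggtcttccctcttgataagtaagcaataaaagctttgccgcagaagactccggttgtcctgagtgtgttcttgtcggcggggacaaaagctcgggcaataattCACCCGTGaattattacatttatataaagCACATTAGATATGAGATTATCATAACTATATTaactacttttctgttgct
Olfr338, chr2:36381451-36381750, lower in KO: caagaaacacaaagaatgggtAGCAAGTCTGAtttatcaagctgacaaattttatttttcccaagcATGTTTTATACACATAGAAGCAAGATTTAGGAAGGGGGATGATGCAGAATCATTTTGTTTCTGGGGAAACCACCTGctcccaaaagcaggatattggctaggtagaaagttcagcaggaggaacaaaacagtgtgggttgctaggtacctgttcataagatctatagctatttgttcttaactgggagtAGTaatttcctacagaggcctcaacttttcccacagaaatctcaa
Olfr943, chr9:39190126-39190425, lower in KO: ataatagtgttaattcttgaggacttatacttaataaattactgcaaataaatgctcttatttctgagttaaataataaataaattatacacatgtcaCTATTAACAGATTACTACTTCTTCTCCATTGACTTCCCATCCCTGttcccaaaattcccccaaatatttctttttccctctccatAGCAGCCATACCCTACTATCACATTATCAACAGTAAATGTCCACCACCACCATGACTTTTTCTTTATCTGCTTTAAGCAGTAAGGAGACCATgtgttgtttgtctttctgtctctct
Olfr1415, chr1:92487826-92488125, lower in KO: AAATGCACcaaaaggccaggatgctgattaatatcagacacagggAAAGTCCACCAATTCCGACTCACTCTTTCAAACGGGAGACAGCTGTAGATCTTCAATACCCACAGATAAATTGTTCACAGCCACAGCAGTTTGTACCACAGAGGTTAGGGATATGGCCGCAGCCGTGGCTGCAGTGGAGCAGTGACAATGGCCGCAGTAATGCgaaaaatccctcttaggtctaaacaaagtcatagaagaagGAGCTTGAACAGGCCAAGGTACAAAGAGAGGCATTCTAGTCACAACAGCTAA
Olfr608, chr7:103469776-103470075, lower in KO: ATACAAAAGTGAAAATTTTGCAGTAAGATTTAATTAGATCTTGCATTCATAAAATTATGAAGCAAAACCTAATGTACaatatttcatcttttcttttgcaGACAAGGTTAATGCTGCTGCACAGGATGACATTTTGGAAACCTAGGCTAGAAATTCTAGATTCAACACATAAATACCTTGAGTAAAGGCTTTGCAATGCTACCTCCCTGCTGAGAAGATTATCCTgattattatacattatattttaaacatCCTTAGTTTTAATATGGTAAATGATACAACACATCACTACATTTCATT
The letters range from no repeat to repeat throughout. The windows at Olfr1128, in a coding exon, and at Olfr478 hold 0 repeat bases, whereas those at Olfr765 and Olfr1100 are 100% repeat. The Olfr338 window is 70.0% repeat and the Olfr1415 window 25.7%. Both directions of difference include repeat-rich and repeat-poor sequence.

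Olfr peaks, assigned from up to 5 kb on either side of a gene, lay mostly around the genes and not over their coding exons or starts. The shares that this assignment alone would give were not worked out, so the places describe the peaks and no preference of the mark. Gene models from GENCODE vM21 on GRCm38 were matched to 253 of the 289 peaks by gene ID and to 35 by symbol, and 1 peak had no match. Of the peaks, 85 (29.4%) ended before the start of the gene, at a median of 1849 bp from it, and 108 (37.4%) began past its end, at a median of 2198 bp. A coding exon was overlapped by 35 peaks (12.1%), a non-coding exon alone by 43 (14.9%), and 17 (5.88%) lay within an intron. Only 10 peaks covered the annotated start, and 18 had their midpoint within 1 kb of it.

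The median WT level per kb was close between these places, at 15.5 normalised reads per kb before the start, 15.5 past the end, 14.5 over coding exons, 14.7 over non-coding exons and 16.3 within introns. Each of 141 genes held a single peak, and 60 genes held 2 or more, which together made 148 of the 289 peaks. Peaks of the same gene share their surroundings and are not independent. In addition, 8 Olfr peaks directly adjoined another Olfr peak with no base between them.

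Peaks at the starts were looked at through the RefSeq windows of 250 bases before to 50 bases after each gene start. The table held 948 such windows for 944 Olfr symbols, and 171 of the 201 genes with a peak matched. A peak touched 21 of the Olfr windows (2.22%), beside 588 of 32851 windows of all genes (1.79%), and 7 Olfr windows lay wholly inside a peak. The annotated start was the start codon in 686 Olfr windows (72.4%, against 5.83% of all windows), so for most receptors the window precedes the coding sequence and not a mapped transcription start. Of the 7 windows inside a peak, those with the highest and the lowest GC content, 62.3% and 24.7%, are printed in the direction of the gene with the 50 bases from the start on in capitals. They were chosen after their values were seen.
Olfr212, chr6:116506266-116506565, plus strand: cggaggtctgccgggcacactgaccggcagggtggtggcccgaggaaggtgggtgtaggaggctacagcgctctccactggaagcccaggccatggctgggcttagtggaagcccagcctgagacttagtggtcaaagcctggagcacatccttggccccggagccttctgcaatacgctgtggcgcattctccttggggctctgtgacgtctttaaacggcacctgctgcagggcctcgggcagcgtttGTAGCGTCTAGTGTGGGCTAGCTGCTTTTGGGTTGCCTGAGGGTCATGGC
Olfr1145, chr2:87809572-87809871, plus strand: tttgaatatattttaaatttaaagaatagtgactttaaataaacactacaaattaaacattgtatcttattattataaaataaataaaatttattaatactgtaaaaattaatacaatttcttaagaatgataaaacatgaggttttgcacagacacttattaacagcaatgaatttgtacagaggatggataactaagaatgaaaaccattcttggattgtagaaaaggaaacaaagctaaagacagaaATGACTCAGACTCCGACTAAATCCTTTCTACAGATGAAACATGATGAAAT
The window of Olfr212 does not begin its capitals with a start codon, and that of Olfr1145 does. The letters TAATTA, the core bound by many homeodomain factors, stood on either strand in 43 of 173 windows of Olfr genes with a peak (24.9%), in 133 of 775 windows of Olfr genes without one (17.2%) and in 5.29% of all windows. For TAATGA, searched separately on both strands, the shares were 33.5%, 27.7% and 9.78%. A match describes letters only, and the receptor genes are related by descent, so their windows are not independent.

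Peaks were spread unevenly over the family's clusters, and chromosome 2 held most of them. In GENCODE, 200 of 1407 Olfr genes had a peak (14.2%), beside 5730 of 55450 genes of all kinds (10.3%), 89 of 624 vomeronasal, taste and trace amine receptor genes (14.3%), 230 of 417 Zfp zinc finger genes (55.2%) and 19 of 58 clustered protocadherin genes (32.8%). These shares are not adjusted for the length of genes, whose median span was 5506 bp for Olfr genes and 17098 bp for Zfp genes. Among Olfr genes, 193 of 1135 protein-coding genes (17.0%) and 2 of 200 unprocessed pseudogenes (1.0%) had a peak, and the median spans were 6002 bp and 845 bp. Chromosome 2 held 162 of the 289 peaks (56.1%) at 105 of its 370 Olfr genes (28.4%). Chromosome 7, with 293 Olfr genes, held 40 peaks at 26 genes (8.87%), and chromosome 9, with 173, held 19 peaks at 15 genes (8.67%). The 8 Olfr genes of the X chromosome held none.

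The clusters themselves differed more than the chromosomes. Olfr genes no more than 1 Mb apart were joined into 61 gene clusters. The largest, chr2:85330779-90403897, held 287 Olfr genes, of which 93 had a peak (32.4%), and H3K9me3 peaks of any annotation lay in it at 63.7 per Mb against 19.7 per Mb over all chromosomes. The small cluster chr7:86268487-86697507 had the densest peaks of the 61, with 11 of its 18 genes marked (61.1%) and 102.5 peaks per Mb. It was plotted beside the 17 clusters of at least 20 genes because it held at least 10 Olfr peaks. Some clusters of few genes, not plotted, were dense too, such as chr8:72041218-72118200 with 3 genes and 69.0 peaks per Mb. By contrast, the cluster chr7:102476579-105369355 held 156 genes, of which 8 had a peak (5.13%), at 11.7 peaks per Mb. Of 17 clusters with at least 20 genes, 3 had no Olfr peak: those of 26 genes on chromosome 1, of 28 genes on chromosome 6 and of 25 genes at chr7:140159999-140722112.

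**Figure D1:**
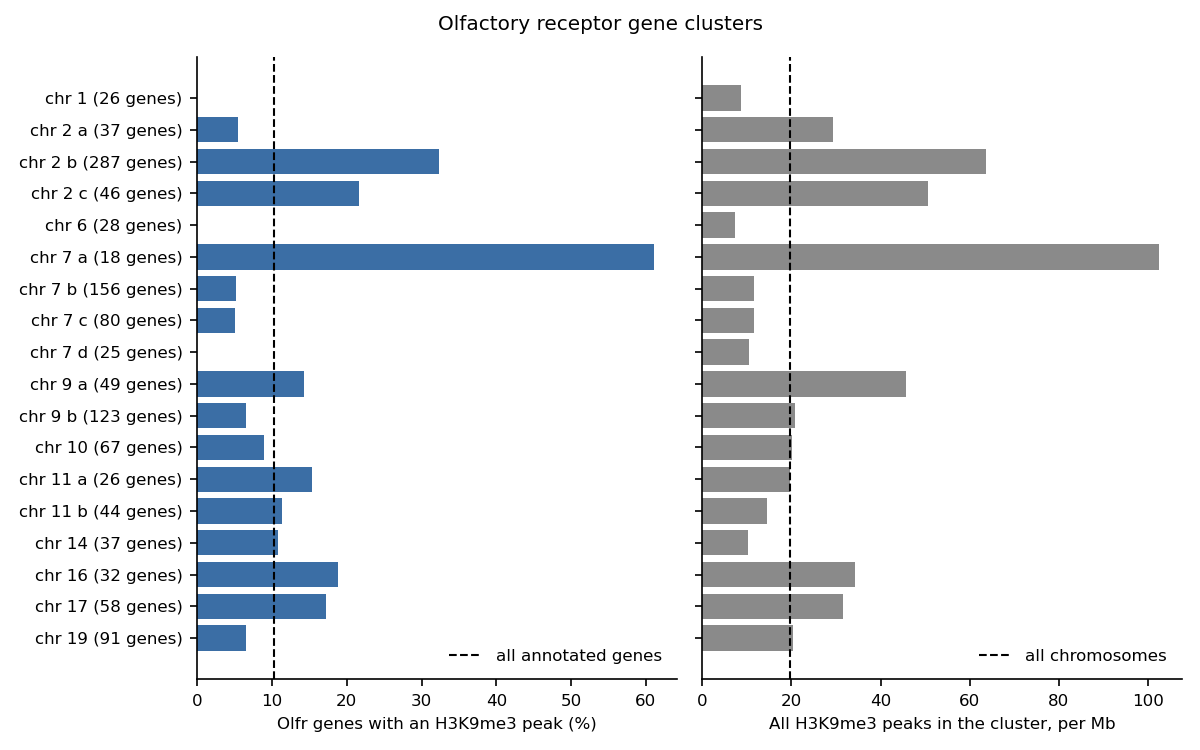
Share of Olfr genes with an H3K9me3 peak (left, percent) and number of H3K9me3 peaks of any annotation per Mb (right) in the 17 Olfr gene clusters of at least 20 genes and the cluster of 18 genes on chromosome 7, lettered in order along each chromosome. The cluster of 18 genes was added because it held at least 10 Olfr peaks. Dashed lines mark all annotated genes (10.3%) and all chromosomes (19.7 peaks per Mb), and the bars of chr 2 b and chr 7 a stand at 32.4% and 61.1%.

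When the peaks were joined in the same way, they formed 29 clusters on 15 chromosomes, of which 8 were single peaks. The 6 clusters with at least 10 peaks held 216 of the 289 peaks. The largest, chr2:85693951-89787600, had 144 peaks (49.8%) at 94 genes and covered 172.65 kb of its 4093.65 kb. The others were chr7:86267401-86697300 with 20 peaks, chr2:111377401-111809250 with 16, chr17:37471801-38340150 with 15, chr9:38181901-39799050 with 11 and chr7:102972901-103615800 with 10. The median WT level per kb in the 6 clusters ranged from 14.3 to 16.0 normalised reads. The median share of repeat bases differed more, from 13.6% in the cluster of 10 peaks on chromosome 7 to 64.1% in the cluster on chromosome 9.

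Beside all peaks, Olfr peaks were of ordinary width and level, but they were narrower and lower than peaks within 5 kb of any gene. Their width ran from 300 to 7950 bp with a median of 1050 bp, which is also the median of all peaks. The quartiles, 750 and 1650 bp, were those of all peaks too. Peaks within 5 kb of any gene had a median width of 1200 bp and quartiles of 900 and 1800 bp. None of the 289 Olfr peaks reached 10 kb, a width that was rare over all peaks (286 of 53761). At Zfp genes 63 of the 449 peaks reached it. Zfp clusters are a known site of broad H3K9me3 domains, and their peaks had a median width of 2100 bp. The WT level of Olfr peaks had a median of 15.3 normalised reads per kb, with a range of 10.5 to 28.4. The median was 15.7 over all peaks and 16.1 over peaks within 5 kb of any gene. It was 15.6 at the other chemosensory receptors, 15.2 at protocadherins and 17.7 at Zfp genes. Per library, the median log2 level per kb of Olfr peaks differed from that of all peaks by 0.01, -0.07 and -0.05 in WT replicates 1, 2 and 3, so the difference changed sign between replicates.

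Relative to the WT input, whose reads were not scaled to the ChIP libraries, the median log2 ratio was 0.72 at Olfr peaks, 0.79 over all peaks and 1.18 at Zfp peaks. At 88 of the 289 Olfr peaks this log2 ratio was above 1, and at 8 it was below 0. Olfr peaks had a median GC content of 40.9%, against 41.9% over all peaks. Their median share of repeat bases was 43.3%, against 37.8% over all peaks and 32.2% over peaks within 5 kb of any gene. The share was 52.7% at the other chemosensory receptors, 31.9% at Zfp genes and 12.5% at protocadherins.

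**Figure D2:**
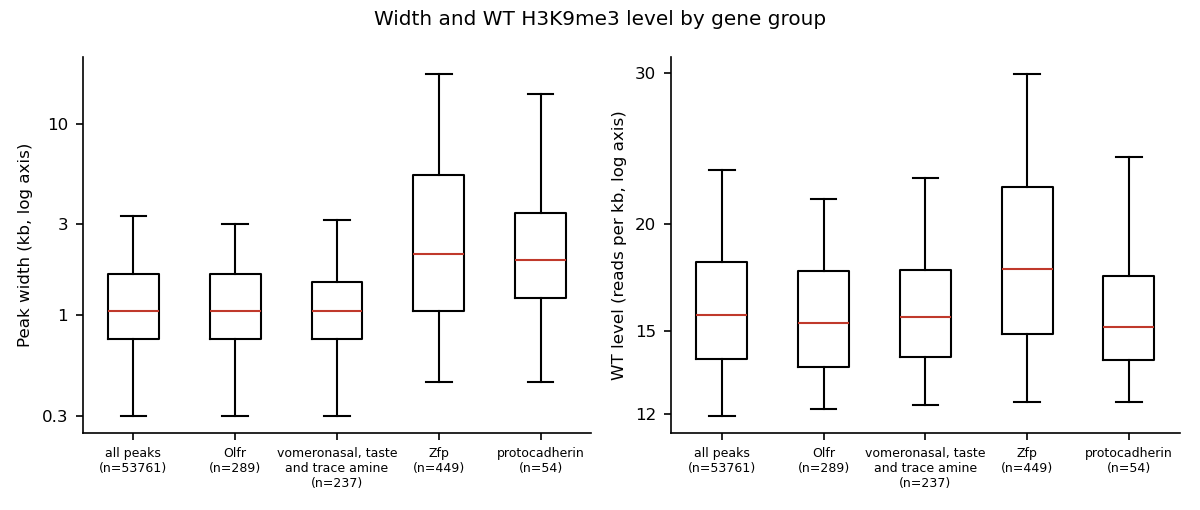
Peak width in kb (left) and WT level in normalised reads per kb (right), both on log axes, for all peaks and for peaks at 4 gene groups. Boxes span the quartiles, red lines are medians and whiskers reach the 5th and 95th percentiles; the Olfr medians are 1050 bp and 15.3 reads per kb, beside 2100 bp and 17.7 reads per kb at Zfp genes.

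The widest and the most strongly marked peaks show the upper end of the family. The widest, at Olfr293 (chr7:86665351-86673300, 7950 bp), overlapped a non-coding exon and stood at 6.58, 6.99 and 6.94 in the WT libraries and 6.84, 6.64 and 6.91 in the KO libraries, so the genotypes overlapped. The next widest were at Olfr1163 (4800 bp), Olfr212 and Olfr748 (both 4500 bp) and Olfr891 (4350 bp), with log2 fold changes of 0.29, -0.26, -0.12 and -0.02 in KO against WT and adjusted p of 0.53 to 0.985 (limma). Among peaks of at least 1 kb, the highest WT levels per kb were at Olfr59 (26.7 reads per kb), Olfr504 (20.5), Olfr212 and Olfr521 (both 20.1) and Olfr1360 (20.0). Of these 5, Olfr212 and Olfr521 had KO values that overlapped the WT values, and so did Olfr504. The peak at Olfr212 was high on both scales.

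Genes with several peaks gave a view within a single locus. Olfr1162 and Olfr1220, both in the large cluster of chromosome 2, held 5 peaks each, and Olfr1100, Olfr1198 and Olfr943 held 4 each. At Olfr1162 the log2 fold changes ran from -0.49 to 0.38 and at Olfr1220 from -0.52 to 0.09, so peaks of the same gene differed in sign. At Olfr943, on chromosome 9, all 4 were negative, from -0.90 to -0.16. The mean over its 4 peaks was 4.87, 4.70 and 4.58 in WT and 4.45, 4.10 and 4.47 in KO. All 3 KO libraries were thus below all 3 WT libraries, although none of the 4 peaks passed the test, with adjusted p of 0.279 to 0.929 in limma.

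Few Olfr peaks passed the test of KO against WT, and those that did were lower in KO. KO and WT were compared with limma on the log2 values of all 53761 peaks, two-sided, and a peak was called at an adjusted p (Benjamini-Hochberg over all peaks) under 0.05. Of the 289 Olfr peaks, 2 were called (0.692%), where 1.66% of all peaks were. Both fell in KO, beside 0.863% of all peaks called lower and 0.796% called higher. The numbers called in the other groups were 0 of 237 peaks at the other chemosensory receptors, 23 of 449 at Zfp genes (5.12%), 1 of 54 at protocadherins (1.85%) and 3.9% of the peaks within 5 kb of any gene. At an unadjusted p under 0.05 there were 22 Olfr peaks (7.61%), 8 higher and 14 lower. Of all peaks 10.6% passed, 2432 higher and 3256 lower. KO and WT values did not overlap, with KO higher, at 16 Olfr peaks (5.54%), against 7.2% of all peaks, and, with KO lower, at 19 (6.57%), against 8.42%. The calls and the non-overlapping values were thus no more frequent than over all peaks.

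The peak at Olfr338 (chr2:36380701-36382500, 1800 bp), which overlaps a non-coding exon of the gene on the plus strand, stood at 5.54, 4.88 and 4.79 in WT replicates 1, 2 and 3 and at 4.34, 3.84 and 4.20 in KO. Its recovered reads were 41, 33 and 32 in WT and 17, 14 and 20 in KO, while the inputs held 16 WT and 19 KO reads. All KO values were below all WT values, and it fell by 0.94 ± 0.25 on the log2 scale (SE, n = 3 per genotype, adjusted p = 0.0323, limma). The call was lost without WT replicate 1, WT replicate 2, KO replicate 2 or KO replicate 3, with adjusted p of 0.363, 0.0566, 0.167 and 0.0533 in limma.

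The peak at Olfr59 (chr11:74292451-74294550, 2100 bp) lies 843 bp past the end of the gene. Its values were 5.79, 6.04 and 5.60 in WT and 4.73, 5.04 and 5.45 in KO, from 49, 73 and 55 reads and 22, 33 and 45 reads, with 20 WT and 23 KO input reads. KO replicate 3 came close to WT replicate 3 without overlap. It fell by 0.74 ± 0.20 on the log2 scale (SE, n = 3 per genotype, adjusted p = 0.0351, limma), and the call was lost without WT replicate 1, WT replicate 2, KO replicate 1 or KO replicate 2, with adjusted p of 0.112, 0.288, 0.236 and 0.0979 in limma. A second peak of the gene, before its start at chr11:74280151-74281200, had a log2 fold change of -0.53 with an adjusted p of 0.544 in limma. Both called peaks were above the family's median in WT level per kb, at 18.7 (Olfr338) and 26.7 (Olfr59) reads per kb. In KO they stood at 9.72 and 16.0, and a call of lower in KO by itself favours peaks with high WT values. Both lay outside the 6 clusters of at least 10 peaks.

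The nearest peak on the other side of the threshold was at Olfr1415 (chr1:92487151-92488800), 301 bp past the end of the gene. It stood at 5.30, 5.15 and 4.60 in WT and 4.25, 4.28 and 4.04 in KO, with no overlap and a log2 fold change of -0.83 ± 0.25 (SE, n = 3 per genotype, adjusted p = 0.0727, limma). The inputs held 9 WT and 13 KO reads there. The other decreases among the 5 largest without overlap had fewer reads. Peaks whose values overlapped could be as far from 0, with a log2 fold change of -0.89 at Olfr1148 and -0.76 at Olfr1284. At Olfr1447 (chr19:12899101-12899400, 300 bp), with the most negative log2 fold change of the family at -1.11 ± 0.55, the reads numbered 5, 15 and 9 in WT and 2, 5 and 5 in KO. At Olfr943 (chr9:39189901-39190650) the values were 4.09, 3.77 and 3.97 in WT and 3.08, 3.19 and 2.84 in KO. At Olfr608 (chr7:103469551-103470300), over a coding exon, they were 3.88, 3.95 and 3.71 in WT and 3.26, 3.61 and 2.42 in KO, and without KO replicate 3 the log2 fold change was -0.41 in place of -0.75. These 3 peaks had adjusted p of 0.477, 0.279 and 0.465 in limma.

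No increase was called. The largest positive value was at Olfr1128 (chr2:87544801-87545250), over the coding exon, whose 450 bp held 5, 5 and 8 reads in WT and 9, 10 and 22 in KO. Its values were 2.55, 2.18 and 2.79 in WT and 3.42, 3.35 and 4.35 in KO, with KO replicate 3 furthest up, and the log2 fold change was 1.20 ± 0.43 (SE, n = 3 per genotype, adjusted p = 0.197, limma). The repeat-rich peak past the end of Olfr765 (chr10:129042001-129043050) stood at 3.20, 3.33 and 3.89 in WT and 4.06, 4.42 and 4.55 in KO (log2 fold change 0.87 ± 0.31, SE, adjusted p = 0.194, limma). Its input moved the other way, with 10 reads in WT and 5 in KO. Among peaks without overlap, Olfr478, Olfr1132 and Olfr1100 came next with log2 fold changes of 0.72, 0.70 and 0.68 and adjusted p of 0.5, 0.495 and 0.251 in limma. At Olfr478 the log2 fold change was 0.48 without KO replicate 1. Some peaks whose values overlapped had higher ones, such as Olfr1145 (0.88) and Olfr814 (0.87). The peak at Olfr1360, already given for its high WT level, stood at 4.98, 5.04 and 4.70 in WT and 4.16, 4.42 and 4.13 in KO, without overlap (log2 fold change -0.67 ± 0.24, SE, adjusted p = 0.207, limma). Leaving out the peaks already named, the 5 with the smallest unadjusted p were at Olfr173 (-0.69), Olfr1094 (0.65), Olfr1290 (0.75), Olfr1152 (0.50) and Olfr57 (-0.53), with adjusted p of 0.257 to 0.386 in limma. Single libraries moved 3 of these by over 1.5 times, to 0.35 at Olfr1094 and 0.48 at Olfr1290 without WT replicate 1 and to -0.33 at Olfr57 without WT replicate 2.

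**Figure D3:**
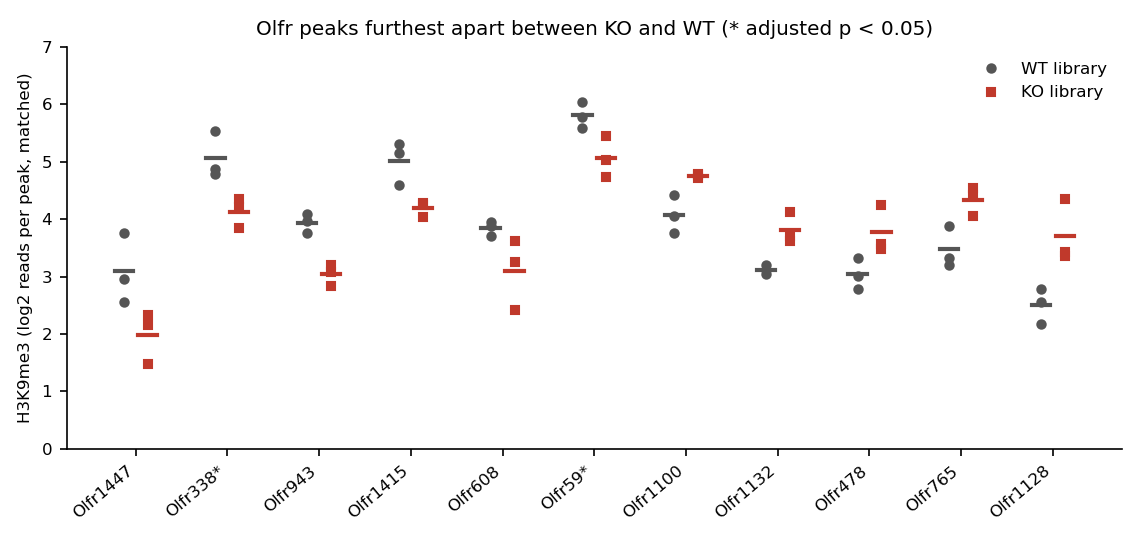
H3K9me3 level (log2 reads per peak, matched across libraries) in each of the 3 WT (grey circles) and 3 KO (red squares) libraries at the 11 Olfr peaks that were called or had the largest non-overlapping differences, with bars at the genotype means and an asterisk where the adjusted p was under 0.05. Only Olfr338 and Olfr59 carry an asterisk.

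Across the family the differences were centred near 0. The log2 fold changes ran from -1.11 to 1.20 with a median of 0.06, against 0.00 over all peaks. Of the 289, 155 (53.6%) were positive, against 50.3% of all peaks and 47.7% of peaks within 5 kb of any gene. The mean level over the 289 peaks was 4.01, 3.98 and 4.00 in the WT libraries and 4.04, 3.99 and 4.03 in the KO libraries, so the genotypes overlapped. Because the authors matched the distributions, the mean over all peaks was 4.16 in every library, and a change shared by most peaks would not be seen.

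**Figure D4:**
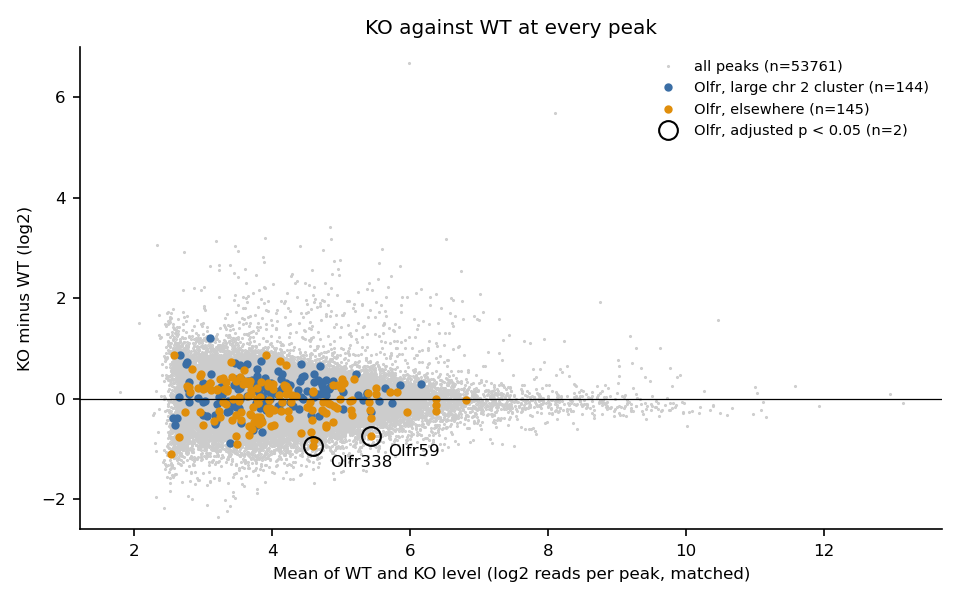
KO minus WT (log2) against the mean of the WT and KO levels (log2 reads per peak, matched) for all 53761 peaks (grey), the 144 Olfr peaks of the large chromosome 2 cluster (blue) and the 145 other Olfr peaks (orange). The Olfr peaks lie between -1.11 and 1.20, and circles mark the 2 called peaks.

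The large cluster of chromosome 2 and the rest of the family lay on opposite sides of 0. In that cluster 89 of 144 log2 fold changes were positive (61.8%), the median was 0.09 and 0 peaks were called, with 5 higher and 2 lower at an unadjusted p under 0.05 (limma). Its mean level was 3.91, 3.87 and 3.91 in WT and 4.04, 3.93 and 4.02 in KO, so all KO libraries were above all WT libraries. Among the 145 other Olfr peaks 66 were positive (45.5%), the median was -0.03 and 3 were higher and 12 lower at that p. Of all 53761 peaks, 2432 were higher and 3256 lower at that p, so lower was the more frequent direction there too. The mean level of the 145 peaks was 4.12, 4.09 and 4.09 in WT and 4.05, 4.06 and 4.04 in KO, with all KO libraries below all WT libraries. The division into these groups was chosen after the values were known, the peaks of a cluster are neighbours, and no test of the difference was made.

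The shift was not limited to Olfr peaks of the cluster. Over all 309 peaks in its span, whatever their annotation, 61.8% of log2 fold changes were positive with a median of 0.10, whereas of the 3110 chromosome 2 peaks other than the cluster's Olfr peaks 47.6% were. The inputs differed there as well. Over the cluster's Olfr peaks the WT input held 1632 reads and the KO input 1416, a ratio of 0.868, against 0.99 at the other Olfr peaks and 0.943 over all peaks. Among the other clusters of at least 10 peaks, the ratio was 1.04 at the 16 peaks of chromosome 2. On chromosome 7 it was 1.09 at the 20 peaks and 0.879 at the 10 peaks. On chromosomes 9 and 17 it was 0.915 and 0.941. With 1 input per genotype these ratios have no replicate, and their part in the result was not tested.

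Of the other clusters with at least 10 peaks, KO libraries were above WT without overlap in the 16 peaks of chromosome 2, where means were 3.63, 3.70 and 3.65 in WT and 3.76, 3.72 and 3.73 in KO. They were below WT without overlap in the 10 peaks of chromosome 7, at 4.01, 3.88 and 3.91 in WT and 3.84, 3.69 and 3.77 in KO. In the clusters of 20 peaks on chromosome 7, 11 on chromosome 9 and 15 on chromosome 17 the genotypes overlapped. Counting all 29 clusters, single peaks included, KO was higher without overlap in 2 and lower in 6. The 6 include the single peaks of Olfr1415 and Olfr1360, already named for their own values. No such count was made for clusters of other peaks, and for single peaks of any annotation the shares were 7.2% higher and 8.42% lower. A mean over clusters in place of peaks gave KO minus WT of -0.12 in contrast to 0.03 over peaks.

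**Figure D5:**
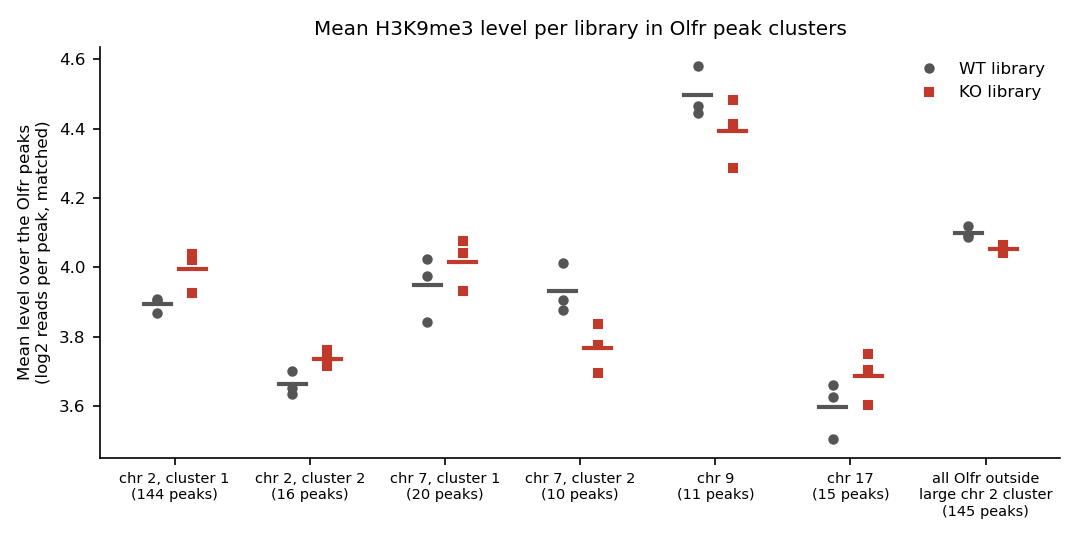
Mean H3K9me3 level (log2 reads per peak, matched) over the Olfr peaks of each cluster with at least 10 peaks and over the 145 Olfr peaks outside the large chromosome 2 cluster, with 1 point per library (WT grey circles, KO red squares) and bars at the genotype means; the vertical axis does not start at 0. KO libraries lie above WT libraries in both chromosome 2 clusters and below them in the second chromosome 7 cluster and in the 145 peaks.

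The input libraries were compared at the 133 Olfr peaks with at least 10 WT input reads. The median ratio of KO to WT input reads was 0.864, against 0.857 over the 28561 peaks of all annotations with as many WT input reads, a set whose choice by the WT input pulls the ratio down. The largest ratios were at Olfr132 (10 WT and 26 KO reads), Olfr57 (15 and 30), Olfr1220 (11 and 20), Olfr1350 (15 and 25) and Olfr224 (12 and 18). The smallest were at Olfr1076 (10 and 3), Olfr1225 (10 and 3), Olfr1097 (11 and 4), Olfr1195 (13 and 5) and Olfr372 (18 and 7). None of these 10 peaks was called in the ChIP comparison, with adjusted p of 0.386 to 0.996 in limma.

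Genes of the olfactory signalling pathway and of receptor gene choice gave a wider view. Of 40 such genes 13 held a peak, with 63 peaks in all, but 43 of these were at a single gene, Ncam2, which encodes an adhesion molecule of olfactory axons. The median WT level was 14.5 normalised reads per kb at Ncam2 and 17.0 at the 20 peaks of the other genes. Among the 13 were also Gnal and Gng13 (G protein subunits of odorant signalling), Adcy3 (the adenylyl cyclase of that signalling), and Cngb1 and Ano2 (channels). Others were Ebf1 and Ebf4 (transcription factors), Kdm1a (a histone demethylase) and Cbx3 (the heterochromatin protein HP1 gamma). Of the 63 peaks 1 was called (1.59%), a share close to the 1.66% of all peaks. It was at Cbx3, at chr6:51487651-51489300, with 5.30, 5.50 and 5.62 in WT and 4.92, 4.20 and 4.42 in KO. It fell by 0.96 ± 0.22 on the log2 scale (SE, n = 3 per genotype, adjusted p = 0.00701, limma), with no overlap between genotypes and 13 reads in each input. The median log2 fold change was 0.03 over the peaks of Ncam2 and -0.08 over the other 20, a division made after the values were seen.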

How the data were processed

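The submitters' processing notes name Trim Galore 0.6.1, Bowtie2 2.3.2 and GRCm38. The labels give single-end reads, whereas the methods give paired-end reads and another Trim Galore version, so a recovered read may stand for a read or for a pair. In the methods, the authors dropped duplicates and reads mapped with a quality under 20, and used the MACS peak finder of SeqMonk on all ChIP libraries against both inputs (fragment size 300 bp, p of 1e-05). The authors deposited ChIP values as log2 read counts per peak, matched in distribution, and input values as log2 read counts, unscaled. A second deposited table of the authors' own EdgeR results was not used. Reads behind a value were recovered from its steps, for up to 100 reads. KO and WT were compared with limma 3.58.1 (R 4.3.3) with a trended prior. The deposited values were not counts, so edgeR was not run. GC content, repeats and places came from RefSeq GRCm38.p6 and GENCODE vM21 with Python 3.11.15 and pysam 0.24.0. The test was checked on simulated data. Named peaks are those called, the 5 largest non-overlapping differences in each direction, the 5 widest, the 5 highest per kb, the 5 genes with most peaks, the 5 next smallest p, the 5 largest and smallest input ratios, and clusters of at least 10 peaks. Members and lists were chosen with earlier results of these data known. The study calls its replicates biological, but the sources used here do not tie each library to its own animal, and p-values measure the spread between these libraries. Levels are per kb of peak width, 2 to the mean log2 value divided by the width.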

Additional observations from a re-analysis of the deposited data

How the results depend on the processing

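The number of Olfr peaks called in KO was 2 in the reported fit, where 1.66% of all peaks were called. It was also 2 with centred libraries (1.61% of all peaks called), a further quantile normalization (1.65%) or genes counted once. It was 3 when only peaks averaging 4 or more in log2 units were tested (122 Olfr peaks). In that fit 3.23% of the tested peaks of any annotation were called. It was 0 with a prior without a trend (127 of all peaks called, 0.236%). It was 0 at an adjusted p under 0.01 and 0 with a log2 fold change of at least 1 as well. It was 1 with voom on recovered reads (286 Olfr peaks tested, 1.09% of all tested peaks called) and 1 among peaks overlapping the gene. Leaving out each library gave 0 to 3, where 1.06% to 1.5% of all peaks were called. After subtracting the input it was 101, with 65 higher and 36 lower. That alternative shifts all 3 libraries of a genotype by the same single input, whose counting error does not enter the fit. It called 15873 of all peaks (29.5%). The replicate number as a block gave 2, where 1.62% of all peaks were called. Same-numbered libraries did not deviate together (correlations of -0.001, 0.019 and 0.016), so the numbers were not taken as a pairing.

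The mean level over Olfr peaks differed by 0.0264 between KO and WT, by 0.0160 without KO replicate 1 and 0.0405 without KO replicate 2 (the range on leaving out each library), and by -0.0195 as a median over peaks, -0.12 as a mean over chromosome clusters and 0.0519 over peaks overlapping the gene. The median WT level of Olfr peaks minus that of all peaks was -0.03 per kb, -0.15 without division by width and -0.0821 for peaks overlapping the gene (log2). Gaps of 500 kb and 2 Mb gave 31 and 27 clusters. At the 16 peaks named for their difference, 201 alternative fits reversed the sign in 2, both after subtracting the input, to 0.83 at Olfr608 and 0.40 at Olfr173 (adjusted p of 0.0681 and 0.297, limma). Depth limits these results: with from 2 to over 100 reads a peak, a small difference was not detectable, and larger ones could be missed. In the check of the test, all peaks were simulated, but changes were given only to peaks above a set mean level. Some Olfr peaks lie below that level. Of 100 peaks given a log2 fold change of 1, 50 were recovered. Of 100 peaks given a log2 fold change of 2, 91 were recovered. The simulated spread followed a smooth curve on level and did not vary between peaks of equal level. Recovery at Olfr peaks can therefore be lower. A peak that was not called is thus not shown to be unchanged. Reads that map equally well to near-identical receptor genes fall to the mapping filter, and what was lost this way was not measured.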
